A study of Mus musculus with 6 samples.

Results

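The genes described here are 30 markers of autonomic neurons and of the glia that accompany them, chosen by name as a list and matched by gene symbol to the probe sets of an expression array. All 30 had a probe set, among 18193 genes with one, and 27 of them were bright enough to be tested, among 12735 genes tested. They fall into 6 genes of the noradrenergic programme, 2 of the cholinergic programme, 13 genes common to most neurons, 4 receptors for neurotrophic factors and 5 glial genes. Bladder RNA from mouse embryos at day 18.5 was measured on 6 arrays, 3 of Get1 −/− animals (null 1 to 3) and 3 of Get1 +/− animals (heterozygous 4 to 6). Get1 is another name of Grhl3, a transcription factor of surface epithelia, and the stated purpose was to learn about the mechanisms behind the bladder defects of the null animals. The controls themselves carry 1 mutant allele, and no wild-type tissue is part of the comparison. The design text counts 3 mice per genotype, so the samples are taken as 1 animal each. The labels give no strain and do not describe the mutant allele.

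The bladder is innervated by neurons of the pelvic ganglia, which lie at its base and along the neighbouring genital tract. Noradrenergic neurons make noradrenaline from tyrosine through tyrosine hydroxylase (Th), aromatic amino acid decarboxylase (Ddc) and dopamine beta-hydroxylase (Dbh), and load it into vesicles through Slc18a2. The homeodomain factor Phox2a and the helix-loop-helix factor Hand2 drive this programme in the embryo. Cholinergic neurons, which contract the bladder muscle, make acetylcholine through choline acetyltransferase (Chat) and load it through Slc18a3. Axon-associated and ganglionic glia descend from the same neural crest and depend on the factor Sox10.

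Th and Dbh, the enzyme genes with the largest differences, are shown with the 250 bases before their start sites, since both are textbook targets of the factors on the list. The sequences are RefSeq's for build GRCm38.p6, written 5′ to 3′ on the gene's strand, and capitals mark matches on either strand to TGACGTCA, the cyclic AMP response element, and to ATTA, the core bound by homeodomain factors such as Phox2a.
Th, chr7:142899996-142900245, minus strand: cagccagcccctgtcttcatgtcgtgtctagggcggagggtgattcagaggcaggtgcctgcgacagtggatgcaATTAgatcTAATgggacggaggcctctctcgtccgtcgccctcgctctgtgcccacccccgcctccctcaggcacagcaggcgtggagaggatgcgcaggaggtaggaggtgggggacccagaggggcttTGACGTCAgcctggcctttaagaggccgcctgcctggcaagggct
Dbh, chr2:27165257-27165506, plus strand: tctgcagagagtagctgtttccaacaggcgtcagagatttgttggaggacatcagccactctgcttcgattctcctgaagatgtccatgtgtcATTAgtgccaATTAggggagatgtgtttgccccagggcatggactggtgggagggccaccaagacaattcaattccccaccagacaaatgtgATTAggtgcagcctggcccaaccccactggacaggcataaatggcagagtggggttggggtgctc

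The Th window held 1 TGACGTCA, from 45 to 38 bases before the start, and 2 places matching ATTA. The Dbh window held 3 places matching ATTA and no TGACGTCA. Over the 32851 windows of this length in the table, 1.55% held TGACGTCA, 54.9% held ATTA and 17.3% held ATTA at 3 or more places. Of the 21 listed genes with a window, 2 held TGACGTCA (Foxd3 and Th) and 14 held ATTA. A gene was counted if any of its windows matched, while the shares count each window, so these numbers are not directly comparable. The letters AACCGGTT, the core bound by grainyhead-like factors, were in 0 of these 21 and in 0.116% of all windows. A match describes letters only, and binding was not measured here.

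All 14 urothelial genes, Grhl3 among them, and all 12 smooth muscle genes lay above the dim filter, which takes the mean over all 6 arrays. That shows their presence only and does not show that the samples held bladder alone. Intestinal epithelial genes were also bright on the null arrays, with a summed signal of 22313 to 34486, against 1053 to 1752 in heterozygous bladders. The Grhl3 probe set, whose place relative to the mutation is not given, had signals of 76.6, 21.5 and 119.7 on null 1 to 3 and of 143, 133 and 126 on heterozygous 4 to 6. All null arrays lay below all heterozygous ones, and null 3 came close to them (difference −0.95, adjusted p = 0.655, limma). Pearson's r between arrays over all genes tested ranged from 0.915 (null 1 with heterozygous 6) to 0.973. Heterozygous 6 had 0.943 and 0.941 with heterozygous 4 and 5, which had 0.969 with each other. Heterozygous 4 and 5 had 0.943 to 0.957 with the null arrays, so heterozygous 6 stood apart from its own group.

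No gene of the list passed the test between null and heterozygous bladders, while most had lower means in null. Of the 27 tested, 0 were called at an adjusted p under 0.05 (limma, Benjamini-Hochberg over all 12735 genes), where 0.510% of all genes were called and 0.0628% were called lower. At an unadjusted p under 0.05 the count was 6 lower and 0 higher, against 4.30% and 3.63% of all genes. With 1 array left out that lower count ranged from 2 (without null 1, null 2 or heterozygous 5) to 13 (without null 3). Of the 6, Th and Phox2a passed the filter only through their heterozygous levels, and the other 4 (Hand2, Gap43, Uchl1 and Ngfr) lay above it in both groups. The difference was below 0 for 25 of the 27, against 54.9% of all genes. It was below −0.5 on the log2 scale for 15 of them and above 0.5 for 0, against 11.0% and 7.62% of all genes. Their median difference, null minus heterozygous, was −0.59, and that over all genes was −0.03. The smallest adjusted p among them was 0.433 (Ngfr).

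The 3 genes left untested (Chat, Slc18a3 and Foxd3) had means among the lowest 30% of all genes. Values are probe set signals on a linear scale, and differences are of log2(signal + 16), a scale with a lowest possible level of 4 that understates the change of dim genes. The arrays hold RNA of whole tissue, so fewer nerve cells, less RNA per cell and a different share of other tissue cannot be told apart. No listed gene passed the test, so a difference between the genotypes was not established.

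**Figure D1:**
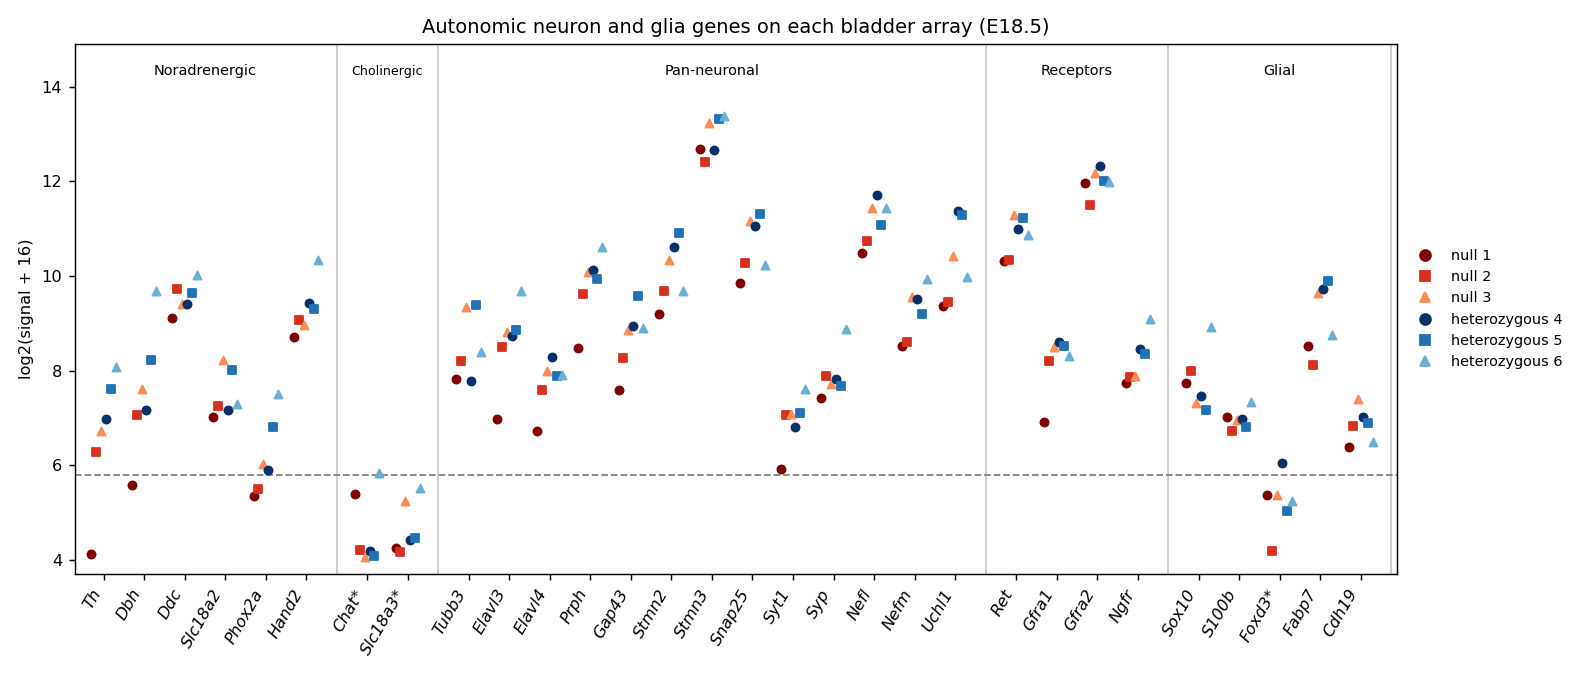
Level of each gene, as log2(signal + 16), on the 3 null arrays (red shades) and the 3 heterozygous arrays (blue shades), grouped by role; the dashed line is the dim filter at 5.80 and asterisks mark the 3 genes not tested. Th on null 1 lies near the lowest possible level of 4, and Chat and Slc18a3 lie low on all arrays.

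The noradrenergic genes had the lowest median difference of the roles, −0.94 over 6 genes, of which 5 were below 0 and 0 were called. Without heterozygous 6 the median was −0.58, and that of the genes common to neurons was then lower, at −0.64. Th, the first and rate-limiting enzyme of the pathway, had signals of 1.39, 61.5 and 89.3 on null 1 to 3 and of 110.2, 179 and 254 on heterozygous 4 to 6. Every null array lay below every heterozygous one, and null 1 stood far below the other two. The log2 level averaged 5.70 ± 1.39 over the null and 7.56 ± 0.55 over the heterozygous arrays (SD, n = 3 per group), a difference of −1.85 (adjusted p = 0.515, limma) and of −1.06 without null 1. The null mean lay under the filter of 5.80, so the size of the difference rests on the offset. It was −2.86 with an offset of 1 and −1.14 with an offset of 64.

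Dbh, which turns dopamine into noradrenaline, had signals of 31.9, 118 and 180.0 on null 1 to 3 and 128, 284 and 803 on heterozygous 4 to 6. Null 1 was the lowest and heterozygous 6 the highest, and null 3 lay above heterozygous 4, so the groups overlapped. The levels were 6.75 ± 1.05 and 8.36 ± 1.26 (SD, n = 3 each), with a difference of −1.60 (SE 0.70, adjusted p = 0.629, limma). It was −1.02 without null 1 and −0.94 without heterozygous 6. The probe set that stands for Dbh can match other transcripts, as the letter x in its name marks. The other probe sets of the gene above the filter had differences of −1.02 (SE 0.43) and −1.76 (SE 0.61), and in the latter the groups did not overlap.

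Phox2a, the homeodomain factor of noradrenergic precursors, had signals of 25.0, 29.1 and 49.5 on the null arrays, against 43.4, 95.8 and 166 on the heterozygous arrays. The groups overlapped by 1 array on each side, with null 3 above heterozygous 4. Its difference was −1.11 (adjusted p = 0.553, limma), and −0.72 without heterozygous 6. Its null mean of 5.63 also lay under the filter, and with offsets of 1 and 64 the difference was −1.40 and −0.69. Hand2, which acts with Phox2a and is also made by mesenchyme of several organs, had signals of 404, 518 and 483 on the null arrays, against 669, 614 and 1286 on the heterozygous arrays. The groups did not overlap, and heterozygous 6 stood above the others. Its difference was −0.78 (SE 0.31, adjusted p = 0.59), and −0.45 without heterozygous 6. The second Hand2 probe set above the filter, with a difference of −0.65 (SE 0.27), also had groups that did not overlap.

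The other noradrenergic genes had small differences. Ddc, a decarboxylase that many epithelia also make, ranged from 534 to 829 in null and from 659 to 1026 in heterozygous bladders, with a difference of −0.27 (95% interval −0.88 to 0.33). Slc18a2, the vesicular monoamine transporter, ranged from 114 to 284 and from 127 to 242, with a difference of 0.01 (95% interval −0.85 to 0.88). Within the heterozygous group, 5 of the 6 genes were highest on heterozygous 6, where Dbh was 3.95 times and Phox2a 2.24 times the mean of the other two arrays on the log scale. Slc18a2 was the exception, at 0.82 times.

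The cholinergic genes were too dim to be compared. Chat had signals of 26.1, 2.61 and 0.733 on null 1 to 3 and of 2.20, 0.934 and 40.8 on heterozygous 4 to 6. Slc18a3 had 3.16, 2.03 and 22.1 on the null arrays, against 5.47, 6.02 and 29.9 on the heterozygous arrays. Both genes were highest on heterozygous 6, and their mean signals lay under the filter level of 39.7. A dim probe set does not show that a transcript is absent.

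All 13 genes common to most neurons had a difference below 0, with a median of −0.59, and 0 were called. Uchl1, a ubiquitin hydrolase abundant in neurons (also known as PGP9.5), had signals of 644, 678 and 1360.0 on null 1 to 3 and 2615, 2501 and 994 on heterozygous 4 to 6. Heterozygous 6 lay below null 3, and the other heterozygous arrays lay above all null arrays. The difference was −1.14 (95% interval −2.17 to −0.11, adjusted p = 0.579, limma), and −1.59 without heterozygous 6.

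Elavl3, a neuronal RNA-binding protein, had signals of 111, 346 and 437 on the null arrays, against 407, 446 and 802 on the heterozygous arrays. Null 1 was far below all others, and null 3 lay between heterozygous 4 and 5. The difference of −0.98 (SE 0.49, adjusted p = 0.701) was −0.42 without null 1, and another Elavl3 probe set above the filter gave −0.05 (SE 0.47). An Elavl3 probe set too dim to be tested went the other way, with a difference of 1.12. It read 25.1, 38.1 and 40.6 on the null arrays, against 7.61, 6.45 and 7.30 on the heterozygous arrays, so its groups did not overlap. Gap43, a protein of growing axon tips, had signals of 177, 294 and 450.1 on the null arrays, against 475, 745 and 465 on the heterozygous arrays. The groups did not overlap, although null 3 came close to heterozygous 6. Its levels were 8.25 ± 0.64 and 9.14 ± 0.37 (SD, n = 3 each), with a difference of −0.90 (95% interval −1.72 to −0.07, adjusted p = 0.59, limma), and −0.57 without null 1.

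Among the cytoskeletal genes, Prph, the intermediate filament peripherin of peripheral neurons, had a difference of −0.84. Nefl and Nefm, the light and medium neurofilaments, had −0.52 and −0.64, and the microtubule regulators Stmn2 and Stmn3 had −0.66 and −0.35. Tubb3, the neuronal tubulin, ranged from 211 to 631 in null and from 204 to 650.4 in heterozygous bladders, with a difference of −0.06 (95% interval −1.22 to 1.09). Elavl4, a relative of Elavl3, had −0.59. Its other probe sets above the filter gave −0.24 and 0.17. Several of these values rested on single arrays. Without null 1 the difference was −0.38 for Prph, −0.31 for Nefl, −0.39 for Stmn2 and −0.24 for Elavl4. Without null 3 it was −0.97 for Nefm, and leaving out 1 array gave −0.58 (heterozygous 4) to −0.17 (null 2) for Stmn3.

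The genes of synaptic vesicle release had differences of −0.44 (Snap25), −0.48 (Syt1) and −0.45 (Syp). Snap25 is a plasma membrane partner in vesicle fusion, Syt1 the calcium sensor and Syp a vesicle membrane protein. The adjusted p of these 3 genes lay between 0.82 and 0.867. Without null 1 the difference was −0.15 for Snap25 and −0.099 for Syt1, and without heterozygous 6 it was −0.073 for Syp. Snap25 reached −0.80 without null 3. Syp showed the upper array most plainly, with signals of 188 and 211 on heterozygous 5 and 4, within the null range of 155 to 221, and 452 on heterozygous 6.

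**Figure D2:**
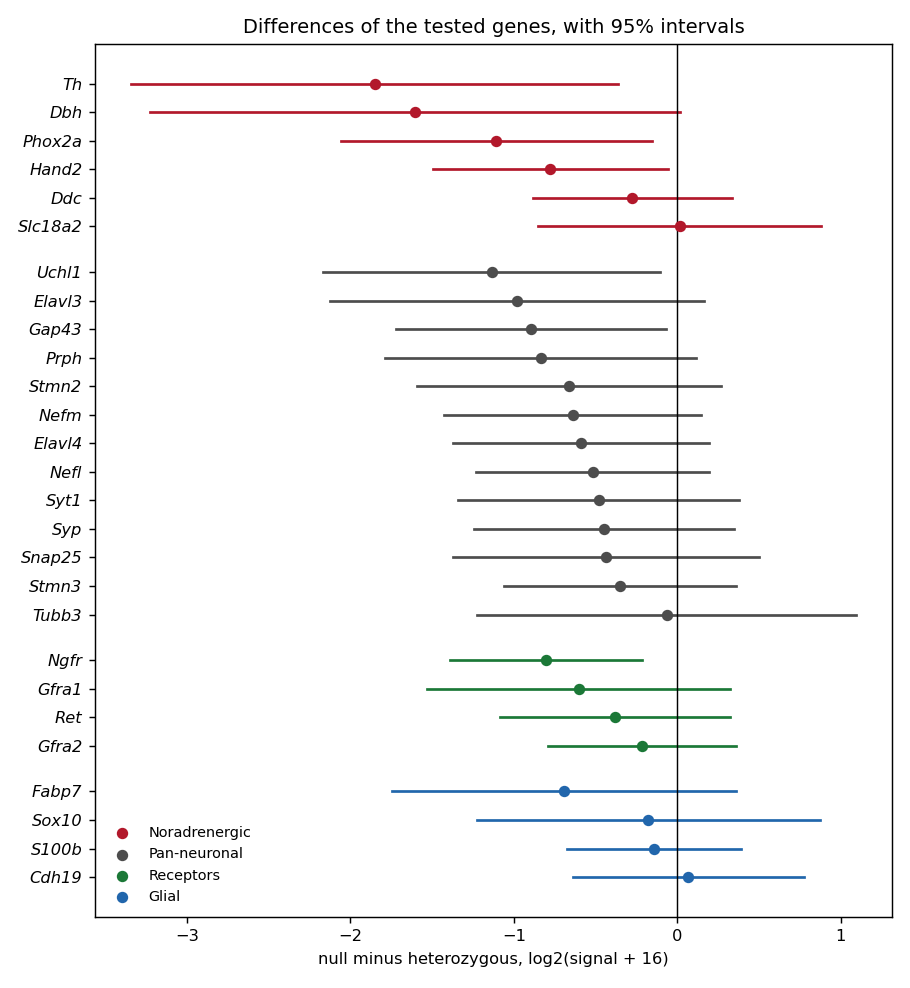
Difference between null and heterozygous bladders for the 27 tested genes, on the log2(signal + 16) scale, with unadjusted 95% intervals from limma, coloured by role. Th has the largest difference (−1.85), Slc18a2 and Cdh19 are the genes above 0 (0.01 and 0.07), and no gene passed after adjustment over all genes.

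The receptors bind growth factors that neurons need from their targets, and their median difference was −0.49, with 0 of 4 called. Ngfr, the low-affinity neurotrophin receptor, is made by nerve and glia and also by mesenchyme and basal epithelium. Its signals were 197, 218 and 220.2 on null 1 to 3 and 335, 311 and 528 on heterozygous 4 to 6. The groups did not overlap, and the null arrays lay close together. Its levels were 7.83 ± 0.08 and 8.63 ± 0.40 (SD, n = 3 each), with a difference of −0.80 (95% interval −1.39 to −0.22, adjusted p = 0.433, limma). It was −0.76 without null 1, and −0.25 with all probe sets of the gene averaged.

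Ret and its co-receptors Gfra1 and Gfra2 bind GDNF-family ligands. Gfra1 had signals of 104, 281 and 343 on the null arrays, against 375, 349.7 and 299.5 on the heterozygous arrays, so that null 1 alone stood far below. Its difference was −0.60 (SE 0.40), and −0.12 without null 1. Ret had 1261, 1277 and 2469 on the null arrays, against 2024, 2370.3 and 1848 on the heterozygous arrays, and null 3 was the highest of all. Its difference was −0.38 (SE 0.30, adjusted p = 0.831, limma), and −0.70 without null 3. Gfra2 had a difference of −0.22 (SE 0.25), measured by a probe set that can match other transcripts, and −0.027 without null 2.

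The glial genes had a median difference of −0.16 over 4 tested genes, with 0 called. With the probe sets of each gene averaged it was −0.45, further from 0 than those of the receptors (−0.23) and of the genes common to neurons (−0.39). These averages take in probe sets under the dim filter. Among the genes that have such probe sets, Sox10 then had −0.63, against −0.18, and Ngfr −0.25, against −0.80. Fabp7, a fatty acid binding protein of early glia, had signals of 353, 262 and 786 on null 1 to 3 and 831, 937 and 415 on heterozygous 4 to 6. Null 3 lay with heterozygous 4 and 5, and heterozygous 6 lay near null 1, so the groups overlapped. The difference was −0.69 (SE 0.46, adjusted p = 0.786, limma), and −0.37 without null 2.

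Sox10, the defining factor of crest-derived glia, had signals of 197, 237 and 143 on the null arrays, against 161, 128 and 470.1 on the heterozygous arrays. Without heterozygous 6, the one high array, its difference of −0.18 (95% interval −1.22 to 0.87) became 0.36. A second Sox10 probe set, too dim to be tested, read 1.21, 5.45 and 21.1 on the null arrays, against 68.2, 53.0 and 49.9 on the heterozygous arrays. The probe sets of this gene thus differed, and the brighter one stood for it by rule.

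S100b, a calcium-binding protein of glia, had signals of 114, 89.8 and 108 on the null arrays, against 109, 96.0 and 146 on the heterozygous arrays, with a difference of −0.14 (95% interval −0.67 to 0.39). Cdh19, a cadherin of Schwann cell precursors, ranged from 67.6 to 153 and from 73.8 to 114, with a difference of 0.07 (95% interval −0.64 to 0.77). Foxd3, a factor of neural crest and early glia, was under the filter, with signals from 2.34 to 25.6 in null and from 16.6 to 50.6 in heterozygous bladders.

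In 4 of the 27 tested genes (Th, Hand2, Gap43 and Ngfr) every null array lay below every heterozygous one, and in 0 the reverse held. Over all genes 7.36% had groups separated in that direction and 6.07% in the other. For each of the 4 the exact permutation test gave p = 0.1 (two-sided), the smallest that 3 against 3 arrays allow.

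The spread inside the groups followed particular arrays. Null 1 was the lowest of the 6 arrays for 21 of the 27 tested genes, against 24.2% of all genes. It was lowest for all 6 noradrenergic genes, 11 of 13 genes common to neurons and 3 of 4 receptors, but for 1 of 4 glial genes (Cdh19). Null 2 was the lowest for 4 (10.1% of all genes), heterozygous 4 and 5 for 1 each (12.9% and 17.8%), and null 3 and heterozygous 6 for 0 (12.0% and 23.0%). Heterozygous 6 was the highest for 14 of the 27, against 32.2% of all genes. Heterozygous 4 and 5 were the highest for 5 each (13.4% and 16.3%), null 3 for 3 (13.1%), and null 1 and null 2 for 0 (15.0% and 10.1%).

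Averaged over the 27 tested genes and set against each gene's heterozygous mean, null 1 lay at −1.11, null 2 at −0.62 and null 3 at −0.12. The heterozygous arrays 4 to 6 lay at −0.16, 0.02 and 0.14, so null 3 was within the heterozygous range. For the noradrenergic genes alone the averages were −1.60, −0.77 and −0.42 on null 1 to 3 and −0.58, 0.01 and 0.57 on heterozygous 4 to 6. Heterozygous 4 thus lay below null 3 for this role.

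**Figure D3:**
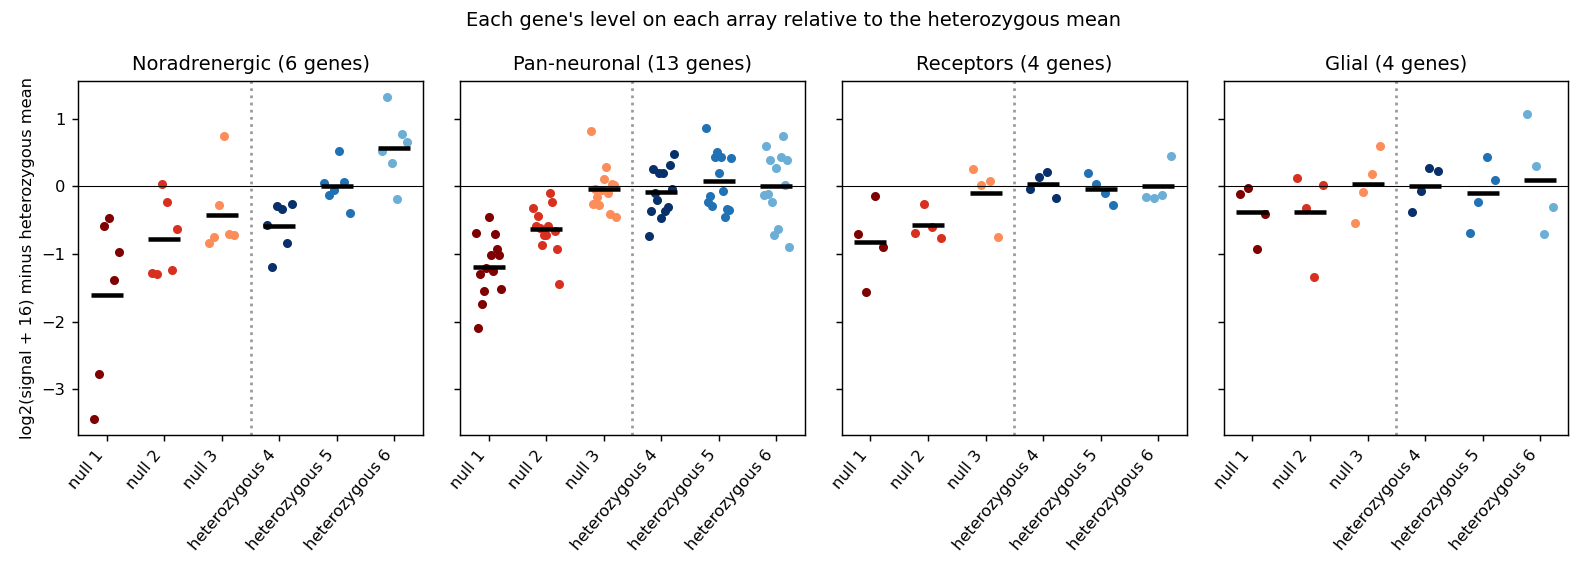
Level of each tested gene on each array minus that gene's heterozygous mean, on the log2(signal + 16) scale, by role; bars are the mean over the genes of a role. Null 1 is lowest for the noradrenergic genes (mean −1.60), the genes common to neurons (−1.19) and the receptors (−0.83), while null 3 lies near 0 for the latter pair (−0.04 and −0.10).

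Null 1 is also the one array whose title carries 1 as its first number, where the other 5 carry 2, and the meaning of that number is not given. Among those 5 arrays the median difference of the list was −0.31, with 24 of 27 genes below 0 and 0 called. By role it was −0.82 for noradrenergic genes, −0.32 for genes common to neurons, −0.24 for receptors and −0.20 for glial genes. With both null 1 and heterozygous 6 left out, an alternative chosen after seeing the data, the median was −0.29 and 20 of 27 genes were below 0.

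**Figure D4:**
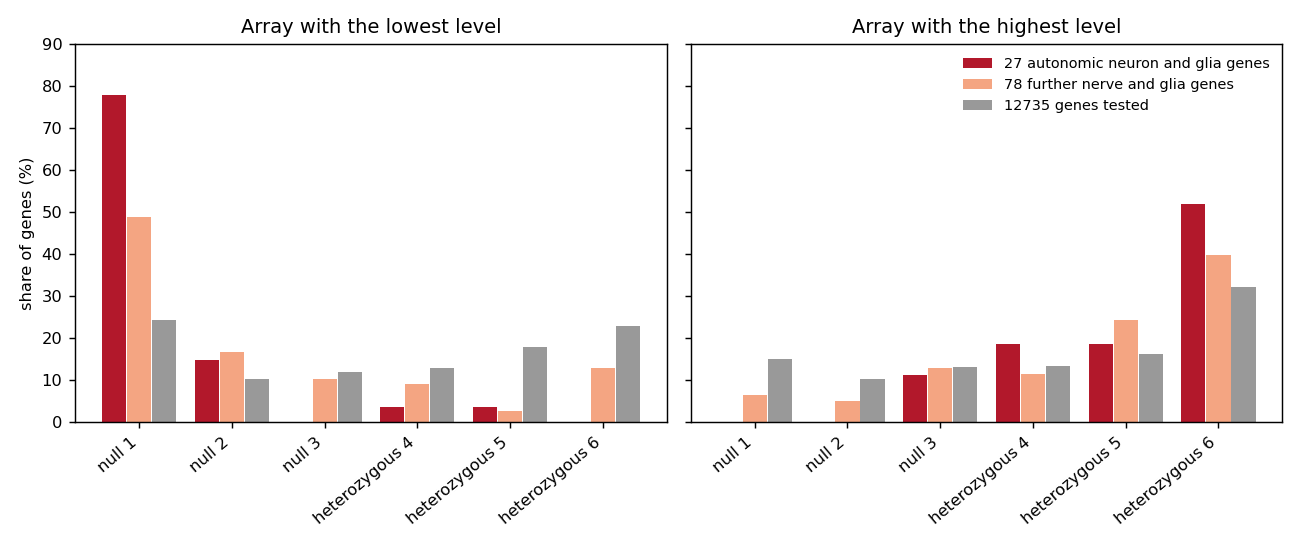
Share of genes (%) for which each array had the lowest (left) or the highest (right) of the 6 levels, for the 27 tested genes of the list, 78 further nerve and glia genes and all 12735 genes tested. Null 1 was lowest for 21 of 27 and 38 of 78 genes, and heterozygous 6 was highest for 14 and 31 of them.

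The 30 genes had 62 probe sets, of which 41 lay above the dim filter, and 0 of these were called when fitted with all probe sets above it. Of the 41, 38 had a difference below 0. Among 11 genes with several probe sets above the filter, the sign agreed in 10, and Elavl4 was the exception. Stmn2 had −0.66 (SE 0.41) and −1.31 (SE 0.45) in its 2 probe sets.

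**Figure D5:**
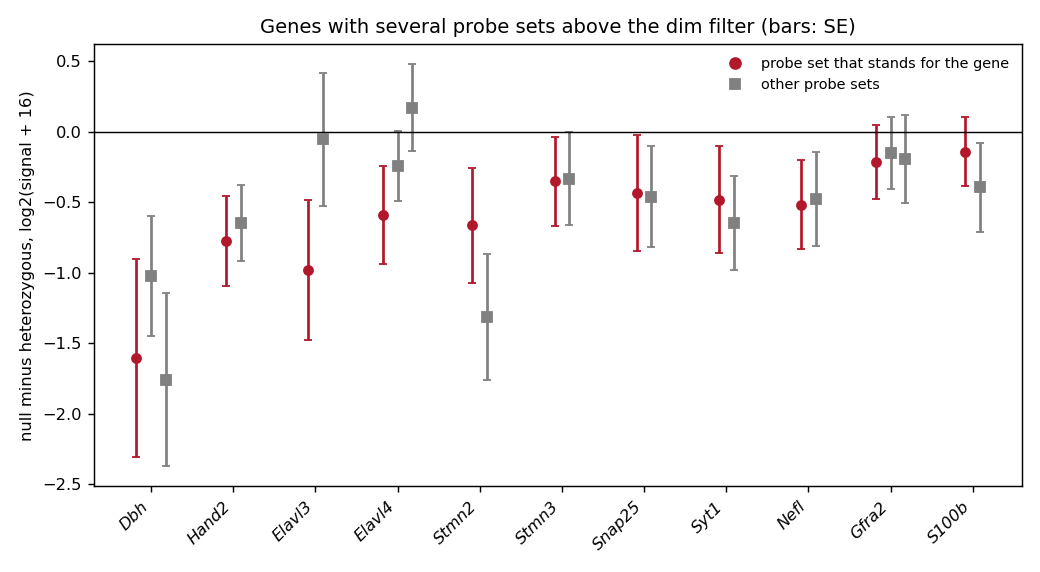
Difference between null and heterozygous bladders for each probe set above the dim filter of the 11 genes that have several, on the log2(signal + 16) scale, with limma's SE as bars. All 3 probe sets of Dbh lie below −1, while those of Elavl4 lie on both sides of 0 (−0.59, −0.24 and 0.17).

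Further genes of the same systems, listed by function and holding none of the 30, gave 0 calls among 78 tested, of 104 listed. Of these, 62 had a difference below 0 (54.9% of all genes), and 12 were lower and 3 higher at an unadjusted p under 0.05 (4.30% and 3.63% of all genes). The groups did not overlap in 9 that were lower and 4 that were higher in null, against 7.36% and 6.07% of all genes. The median was −0.41. Among 12 further noradrenergic genes 9 were below 0, with a median of −0.43. Slc6a2, the noradrenaline reuptake transporter, had signals of 72.5, 139.6 and 332 on null 1 to 3 and 177, 1336 and 1911 on heterozygous 4 to 6. Heterozygous 5 and 6 stood far above the rest, and heterozygous 4 lay below null 3, as for Dbh and Phox2a. Its difference was −2.24 (SE 0.86, adjusted p = 0.565, limma).

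Gata2, a factor of sympathetic neurons that other tissues also make, had 2344, 2893 and 4125 on the null arrays, against 5554, 5644 and 5566 on the heterozygous arrays. The groups did not overlap (difference −0.88, adjusted p = 0.38), and the heterozygous arrays lay close together. Its relative Gata3, which urothelium also makes, had a difference of 0.43 (adjusted p = 0.734).

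Of 7 tested genes of cholinergic and peptidergic neurons 6 were below 0, with a median of −0.54. Gal, the neuropeptide galanin, whose null mean lay under the filter, had a difference of −1.14, Tac1, the precursor of substance P, −0.60 and Nos1, the neuronal nitric oxide synthase, −0.37. Of 32 further genes common to neurons 28 were below 0, with a median of −0.47. Ina, the intermediate filament internexin, had the smallest adjusted p of the 78 genes. Its signals were 135, 179 and 345 on the null arrays, against 454, 772 and 1280.0 on the heterozygous arrays. The groups did not overlap (difference −1.83, 95% interval −2.86 to −0.80, adjusted p = 0.264, limma). Mllt11 and Rtn1, both abundant in neurons, had differences of −0.83 and −0.79 with groups that did not overlap. Dpysl3, a protein of growing axons that other embryonic cells also make, had 0.10 with groups separated the other way.

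Among 12 tested neurotrophic ligands and receptors 7 were below 0, with a median of −0.13. The neurotrophin receptor Ntrk3, read by a probe set that can match other transcripts, had a difference of −0.83 (adjusted p = 0.379). Its relative Ntrk2 had −1.21 (adjusted p = 0.553), and Sema3a, a repellent of axons, had −0.50. In these 3 genes the groups did not overlap. Among 15 tested genes of Schwann cells and other glia 12 were below 0, with a median of −0.24. Dhh, the hedgehog ligand of Schwann cells, had −1.09 (adjusted p = 0.401) and Sox2, a factor of glial precursors and of some epithelia, −0.66 (adjusted p = 0.556). Art3 had 0.72 (adjusted p = 0.398). At an unadjusted p under 0.05, 3 genes of this list were lower and 3 higher in null, and the groups did not overlap in 2 that were lower (Dhh and Sox2) and 3 that were higher. Those 3 were Art3, Mbp, the myelin basic protein, which had 0.89 (adjusted p = 0.568), and Mal, a proteolipid of myelin and of epithelia, which had 0.67 (adjusted p = 0.59).

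Markers of other cells in the same samples moved in several ways beside the nerve genes. Of the 14 urothelial genes 1 was called lower in null, against 0.0628% of all genes. It was Upk2, a uroplakin of the umbrella cells (−3.03, adjusted p = 0.00223, limma). The groups did not overlap in 4 that were lower and 2 that were higher, against 7.36% and 6.07% of all genes. The 4 were Upk1a, Upk2, Krt18 and Grhl3, the mutated gene itself, and the 2 were Krt19 and Foxa1. Upk1a, among those 4, had −2.36 (adjusted p = 0.199, limma). The median of the 14 was −0.25. The 12 smooth muscle genes all had a difference above 0, with a median of 0.24 and 0 called. Of them 3 were higher and 0 lower at an unadjusted p under 0.05 (limma), against 3.63% and 4.30% of all genes. In 4 the groups did not overlap, all higher in null, against 6.07% of all genes. The summed signal of the 12 ranged from 252111 to 282888 in null and from 201806 to 257117 in heterozygous bladders. Of 13 intestinal epithelial genes 12 were tested and 10 were called higher in null, against 0.448% of all genes. Among the 10, Tff3, Guca2a, Fabp1, Cdh17, Cdx2 and Muc2 passed the filter only through their null levels. The summed signal of the 13 ranged from 22313 to 34486 in null and from 1053 to 1752 in heterozygous bladders. Genes of the gut wall gave 0 calls among 4 tested, with a median of 0.09. Foxf2, Barx1 and Nkx3-2 were too dim to be tested. Foxf2 had 38.8, 60.6 and 55.2 on null 1 to 3 and 20.1, 9.05 and 28.7 on heterozygous 4 to 6. Its groups did not overlap, higher in null (difference 0.96), as in 6.07% of all genes tested. In Barx1 (−0.21) and Nkx3-2 (−0.59) they overlapped. Whether gut tissue, with its own nerves, added to the nerve genes on the null arrays was not tested.

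Of 14 genital tract genes 7 were tested, with 0 called, and their summed signal was 4173 to 6549 in null and 6015 to 6858 in heterozygous bladders. Among them Spink1, a trypsin inhibitor that gut also makes, and Hoxb13, a factor of the hindgut and prostate, had differences of 3.74 and 1.35 (adjusted p = 0.207 and 0.26, limma), with the heterozygous mean of Spink1 under the filter. Emx2, a factor of the urogenital tract singled out after its values were seen, had its far lowest array in null 1, with signals of 101, 779.6 and 972 on null 1 to 3 and 1227 to 1582 in heterozygous bladders. Amhr2, the receptor of anti-Müllerian hormone, was read by a probe set that can match other transcripts and had 26.4, 205 and 139 on null 1 to 3 and 293 to 671 in heterozygous bladders. The groups did not overlap in Emx2 and Amhr2, lower in null (adjusted p = 0.65 and 0.446, limma). Nor did they in Spink1 and Hoxb13, higher in null. Of the 7 tested genes that made 2 lower and 2 higher, against 7.36% and 6.07% of all genes. How much tissue at the bladder base each sample held was not recorded in the labels, and its part in the nerve gene differences was not tested.

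Markers of the adrenal gland and of melanocytes were mostly dim. Of 9 adrenal genes 2 were tested (Star and Cyp11a1), with 0 called. Both serve steroid synthesis and do not mark cells that make catecholamines. Pnmt, which makes adrenaline from noradrenaline, was too dim to be tested. Its signals were 8.32 to 42.1 in null and 3.24 to 40.9 in heterozygous bladders. Star, whose heterozygous mean lay under the filter, had signals of 55.4 to 103 in null and 6.49 to 54.7 in heterozygous bladders. Cyp11a1 had 134 to 150 in null and 18.2 to 174 in heterozygous bladders, so its groups overlapped. The part of adrenal tissue in the nerve gene values was not tested. Of 8 melanocyte genes 2 were tested (Mitf and Kit), with 0 called. The lowest signal of any probe set was 0.239, so a signal above 0 does not show that a transcript was present. The dim genes of these lists had no test. The 8 endothelial genes had a median of −0.33, with 0 called.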

How the data were processed

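Probe set intensity values of 6 bladder arrays were used as the authors deposited them, on a linear scale, and the submitters' processing notes name the tools Expression Console 1.1 and PLIER 2.0. Background correction, normalization between arrays and the genome build were not given in the sources used here. Per the labels' protocols the labelled target was sense-strand DNA from random priming, while arrays with such probe sets are usually read with antisense target, and which was used here is not settled. Of 45101 probe sets, 34945 had exactly 1 gene symbol in the platform annotation, 932 had several and named no gene, 64 were controls and 9160 were unnamed here. A gene was represented by its probe set with the highest mean of log2(value + 16) over all 6 arrays. The 30% of genes with the lowest mean (under 5.80) were left out. Differences were fitted with lmFit and eBayes of limma 3.58.1 under R 4.3.3 (two-sided, Benjamini-Hochberg over all genes tested), after a check on simulated data. Groups and numbers came from the titles. The number of arrays limits the precision.

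The genes and lists were chosen with earlier results of these data known. All listed genes are named. Values array by array are given for the 3 largest absolute differences per role, for genes with separate groups and for both cholinergic genes. Other lists are named by calls or by up to 3 genes with the smallest p. Alternatives were 2 other offsets, no filter, averaged or other probe sets, quantile normalization, centring, array weights, another variance prior and each array left out.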

Additional observations from a re-analysis of the deposited data

How the results depend on the processing

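In the alternative fits and in single probe sets, 0 of the 27 tested genes were called in 446 values, the smallest adjusted p being 0.261 (Uchl1 without heterozygous 6). The median of the list was below 0 throughout (−0.80 to −0.29), and 17 of the 27 genes kept their sign. These are not separate checks. The fit without null 1 and the fit on arrays with 2 as first title number are the same, and both count among the 446. Leaving out the filter or changing the variance prior changes no difference, so no sign could change there. With an offset of 1, 35 genes over all were higher and 5 lower, against 57 and 8, and Th had −2.86, against −1.14 with an offset of 64. With 1 array left out these counts were 38 to 53 and 5 to 9. Leaving out 1 array gave a receptor median of −0.76 to −0.24 and a glial median of −0.37 to −0.038. It gave −0.35 to 0.28 for Slc18a2, −0.50 to 0.37 for Tubb3, −0.52 to 0.36 for Sox10, −0.26 to 0.011 for S100b and −0.20 to 0.31 for Cdh19. Among the arrays with 2 as first title number Tubb3 had 0.25. With probe sets averaged the glial median was −0.45, Ddc had 0.036 and Elavl3 0.027. With array weights, of which heterozygous 6 had the lowest (0.328), the median of the list was −0.47. By role it was −0.63 for noradrenergic genes, −0.51 for genes common to neurons, −0.41 for receptors and −0.0077 for glial genes. The count lower at an unadjusted p under 0.05 (limma) was then 3, against 6. Dbh had −0.86, Uchl1 −1.35, Tubb3 0.13 and Sox10 0.14. A second probe set of Elavl4 gave 0.17. Without null 1 and heterozygous 6 together, 5 genes over all were lower, the glial median was 0.053, and Ddc, Tubb3, Syt1, Syp and Sox10 had 0.049, 0.19, 0.12, 0.056 and 0.33. The cause of these changes was not tested. No paired analysis was possible because the groups share no replicate number.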
